A study of Mus musculus with 4 samples.

Results

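The 36 genes described here encode aminoacyl-tRNA synthetases, 20 that serve the cytosol and 16 that serve mitochondria. They were taken as a given list of gene symbols, with the mitochondrial group recognised by a symbol that ends in 2, and this rule uses no measured value. All 36 were found among the 23521 genes of the deposited tables, and all 36 were among the 10209 genes abundant enough to be tested.

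Each synthetase joins an amino acid to its tRNA in a reaction driven by ATP, and the charged tRNA is then carried to the ribosome. Class I and class II enzymes have unrelated catalytic folds, and each amino acid is normally handled by an enzyme of the same class in both compartments. Mitochondria make the hydrophobic core subunits of the respiratory chain on their own ribosomes with synthetases that are encoded in the nucleus and imported. Several cytosolic synthetases are held with 3 scaffold proteins in the multisynthetase complex, and in mammals many cytosolic synthetase genes are targets of ATF4, the transcription factor that acts when amino acids run short.

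The cells were Hepa1-6, a mouse hepatoma line grown in DMEM with 10% FBS. Poly(A) RNA was sequenced from 2 Chd1KD libraries, of cells carrying a lentiviral shRNA against Chd1, and from 2 Control libraries, of cells carrying a lentiviral scrambled shRNA and labelled wild type. Both groups were selected in 4 μg/ml puromycin over 3 weeks before Trizol extraction. CHD1 is an ATP-dependent chromatin remodeler, so the comparison asked how mRNA levels differ when it is depleted. The labels do not state that the libraries within a group were transduced separately. The p-values therefore describe how far these 4 libraries vary, part of which may be technical.

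Values are RPKM, which relates reads to the length of the transcript and the mapped reads of the library, summed here over the transcripts of a gene. Summed RPKM lay between 459381 and 484490 per library, and sequencing depth is unknown. Chd1 itself measured 10.4 and 11.3 RPKM in Chd1KD cells, against 21.4 and 22.5 RPKM in Control cells. Its log2 fold change was -0.96 ± 0.07 (SE), with an adjusted p = 0.0125 by limma, which matches the labels. Of the hepatoma markers, Alb, Afp, Trf, Apob and Hnf4a were present, while Ttr, Serpina1a, Fga and Fgg were listed at 0 in all 4 libraries. The endothelial and lymphocyte markers, 8 of 8 in each list, were under 1 RPKM. So were 7 of 8 macrophage markers, Cd14 being the exception, and 8 of 9 fibroblast markers, Dcn being the exception at 386 to 430 RPKM. Of 7 cholangiocyte markers, 5 were tested and 4 of these were lower in Chd1KD cells at an unadjusted p under 0.05, against 11.3% of all tested genes. The summed level of those 7 markers was 160.1 and 164 RPKM in Chd1KD cells and 225 and 199 RPKM in Control cells, and its part in the synthetase values was not tested. Spp1 made up most of that sum, at 132 and 137 RPKM in Chd1KD cells and 189 and 162 RPKM in Control cells.

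No synthetase mRNA was called different between the groups, and the ratio of the group means, Chd1KD over Control, ran between 0.818 for Tars2 and 1.21 for Nars2. By limma on log2(RPKM + 1), none of the 36 genes passed an adjusted p of 0.05, a call that 0.46% of all tested genes reached. At an unadjusted p under 0.05 there were 5 members (13.9%), against 18.5% of all tested genes. Among these 5, Gars was higher in Chd1KD cells (2.78% of members, against 7.24% of tested genes). Vars, Tars2, Mars and Vars2 were lower in Chd1KD cells (11.1% of members, against 11.3% of tested genes). These shares lie at or under those of all genes. The count of 5 became 8 when Control replicate 2 was left out, 2 when Chd1KD replicate 1 was left out and 3 when Chd1KD replicate 2 was left out.

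Libraries of one group lay wholly above those of the other group for 12 members. Both Chd1KD libraries were above both Control libraries for 3 members (8.33%), against 21.3% of tested genes. Both were below for 9 members (25.0%), against 30.5% of tested genes. The log2 fold change was positive for 17 members (47.2%), against 43.5% of tested genes, and negative for 19. Of these signs, those of Farsa, Hars2 and Pars2 turned positive under quantile normalization. The median log2 fold change was -0.011 over the 36 members and -0.021 over all tested genes. In bulk RNA such as this, fewer cells that express a gene and less RNA per cell cannot be told apart.

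**Figure D1:**
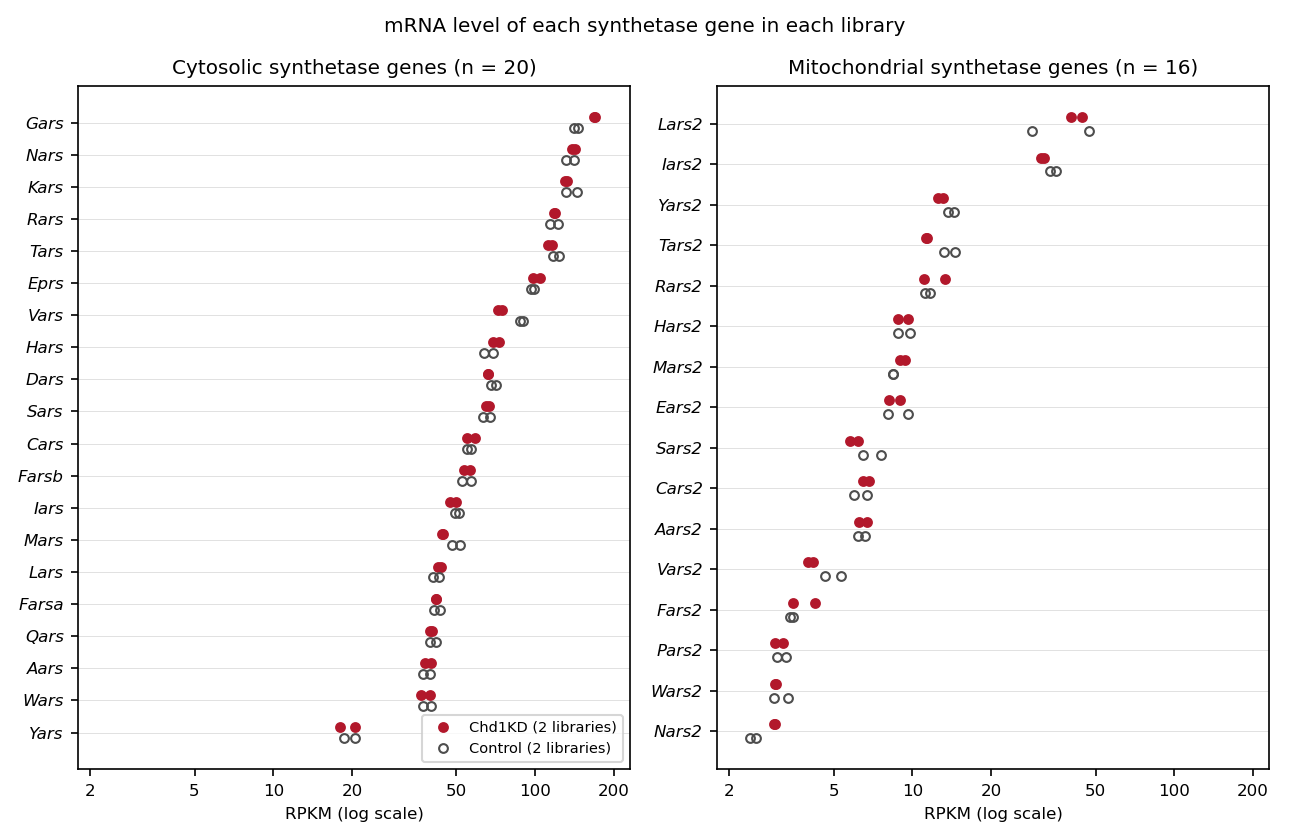
RPKM of each synthetase gene in each library on a log axis, cytosolic genes on the left and mitochondrial genes on the right, each ordered by mean level. Filled red points are the 2 Chd1KD libraries and open points the 2 Control libraries; cytosolic means run between 19.4 and 155.7 RPKM and mitochondrial means between 2.72 and 40.2 RPKM, and the groups lie close together in nearly every row.

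The plot of levels by library separates the compartments more clearly than the treatments. Mean levels over the 4 libraries ran between 19.4 RPKM (Yars) and 155.7 RPKM (Gars) for the 20 cytosolic genes, with a median of 60.8 RPKM. For the 16 mitochondrial genes they ran between 2.72 RPKM (Nars2) and 40.2 RPKM (Lars2), with a median of 7.60 RPKM, so that the cytosolic median was 8.0 times the mitochondrial one. The median of all tested genes was 12.9 RPKM, which all 20 cytosolic and 3 mitochondrial genes exceeded. Only Lars2 and Iars2, 2 of the 16, were above the least abundant cytosolic gene.

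Summed over the 20 cytosolic genes, the level was 1464 and 1487 RPKM in Chd1KD cells, against 1509 and 1437 RPKM in Control cells. The Control libraries lay on either side of the Chd1KD pair. Summed over the 16 mitochondrial genes it was 174.8 and 171.6 RPKM in Chd1KD cells, against 170.1 and 180.4 RPKM in Control cells. Here too the groups overlapped, though not once Lars2, picked for its spread in these libraries, was left out. With 2 libraries a group, the smallest two-sided p of an exact permutation test is 0.333, so these sums were not tested.

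Gars, which encodes the glycine enzyme of both compartments, had the highest level of all members in every library. It measured 169 and 168 RPKM in Chd1KD cells, against 146 and 140.2 RPKM in Control cells. Both Chd1KD libraries were above both Control libraries, and the gap between groups was several times the gap within either. This gave a log2 fold change of 0.24 ± 0.06 (SE), with a 95% interval of 0.10 to 0.37 and an adjusted p = 0.113 by limma. The gene lies at chr6:55038001-55079504 (GRCm38.p6) and is protein coding, with 1 transcript in the tables and no other measured gene over it.

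Kars likewise supplies the lysine enzyme of both compartments, and it sits in the multisynthetase complex. It measured 132 and 130.0 RPKM in Chd1KD cells, against 144 and 131 RPKM in Control cells. Nars, the asparagine enzyme of the cytosol, measured 139 and 142 RPKM in Chd1KD cells, against 141 and 131 RPKM in Control cells. The groups overlapped for both genes, and their order by level was Nars before Kars in each Chd1KD library and Kars before Nars in each Control library. Rars and Tars changed places in the same way, Rars being the more abundant in each Chd1KD library.

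Vars, the valine enzyme, which associates with the elongation factor complex, had the smallest adjusted p of the members. It measured 71.9 and 74.5 RPKM in Chd1KD cells, against 87.3 and 89.7 RPKM in Control cells. The groups stood clearly apart, and libraries within each group differed by little. For Vars the log2 fold change was -0.27 ± 0.06 (SE), with an interval of -0.40 to -0.14 and an adjusted p = 0.101 by limma. The gene lies at chr17:35000907-35016329 and is protein coding, again with 1 transcript and no overlapping measured gene.

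Mars, the methionine enzyme that charges both the initiator and the elongator tRNA, measured 44.5 and 43.9 RPKM in Chd1KD cells, against 51.7 and 48.1 RPKM in Control cells. Both Chd1KD libraries were below both Control libraries. This amounted to a log2 fold change of -0.17 ± 0.06 (SE), with an interval of -0.32 to -0.02 and an adjusted p = 0.215 by limma. Mars lies at chr10:127296221-127311786 and shares 71 bases with Ddit3, a stress-induced transcription factor gene. Ddit3 measured 18.8 and 17.7 RPKM in Chd1KD cells, against 16.4 and 10.8 RPKM in Control cells, the opposite direction to Mars. Whether the counting used strand is not given in the sources used here, so reads in the shared stretch cannot be assigned.

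The other members of the multisynthetase complex showed smaller differences. Eprs, whose protein carries both the glutamate and the proline enzyme, averaged 101.1 ± 3.88 RPKM in Chd1KD cells and 97.3 ± 1.90 RPKM in Control cells (SD, n = 2 each, here and for all such pairs of means). Rars, the arginine enzyme, averaged 118 ± 0.476 RPKM in Chd1KD cells and 118 ± 6.08 RPKM in Control cells. Dars, the aspartate enzyme, averaged 66.1 ± 0.242 RPKM in Chd1KD cells and 69.5 ± 2.28 RPKM in Control cells. Of these Dars alone had groups that did not overlap, at a log2 fold change of -0.07, while Eprs stood at 0.05 and Rars at 0.0026.

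Iars, the isoleucine enzyme, averaged 48.4 ± 1.77 RPKM in Chd1KD cells and 50.3 ± 1.15 RPKM in Control cells. Lars, the leucine enzyme, averaged 43.3 ± 0.788 RPKM in Chd1KD cells and 41.7 ± 1.53 RPKM in Control cells. Qars, the glutamine enzyme, averaged 39.9 ± 0.586 RPKM in Chd1KD cells and 40.7 ± 1.46 RPKM in Control cells. All of these overlapped between groups. Over the 8 synthetases of the complex the median log2 fold change was -0.04, and over the 12 cytosolic synthetases outside it the median was 0.0098. No test was made of that difference.

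The non-catalytic scaffold proteins of the complex had levels within the range of its enzymes. Aimp2 measured 118 and 115 RPKM in Chd1KD cells, against 126 and 117 RPKM in Control cells. Eef1e1 measured 79.3 and 78.2 RPKM in Chd1KD cells, against 83.2 and 78.8 RPKM in Control cells. Aimp1 averaged 102 ± 1.64 RPKM in Chd1KD cells and 105 ± 10.6 RPKM in Control cells. None of these 3 genes was at an unadjusted p under 0.05, and their log2 fold changes were between -0.06 and -0.04, that of Eef1e1 reaching 8.7e-05 without Control replicate 1.

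Tars, the threonine enzyme, averaged 114 ± 2.51 RPKM in Chd1KD cells and 120.1 ± 4.87 RPKM in Control cells. Hars, the histidine enzyme, averaged 71.0 ± 2.51 RPKM in Chd1KD cells and 66.4 ± 4.02 RPKM in Control cells. Tars had groups that did not overlap, with a log2 fold change of -0.07 and an interval of -0.21 to 0.07. Hars had groups that overlapped, with a log2 fold change of 0.10 and an interval of -0.06 to 0.25.

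Sars charges serine tRNA and also the selenocysteine tRNA, and averaged 65.5 ± 1.21 RPKM in Chd1KD cells and 64.9 ± 2.76 RPKM in Control cells. Cars, the cysteine enzyme, averaged 56.9 ± 2.60 RPKM in Chd1KD cells and 56.0 ± 1.37 RPKM in Control cells. Both overlapped between groups, at log2 fold changes of 0.01 for Sars and 0.02 for Cars.

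The phenylalanine enzyme of the cytosol is assembled from alpha subunits encoded by Farsa and beta subunits encoded by Farsb. Farsa averaged 41.7 ± 0.158 RPKM in Chd1KD cells and 42.1 ± 1.70 RPKM in Control cells. Farsb averaged 54.9 ± 1.96 RPKM in Chd1KD cells and 54.7 ± 3.04 RPKM in Control cells. The ratio of Farsb to Farsa was 1.29 and 1.35 in Chd1KD libraries and 1.31 and 1.28 in Control libraries, and the groups overlapped.

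The least abundant cytosolic members were Aars, Wars and Yars. Aars, the alanine enzyme, which also clears tRNA mischarged with serine, measured 38.1 and 40.1 RPKM in Chd1KD cells, against 39.5 and 37.2 RPKM in Control cells. Wars, the tryptophan enzyme, known in human cells as an interferon-induced gene, measured 36.7 and 39.8 RPKM in Chd1KD cells, against 37.2 and 40.0 RPKM in Control cells. Yars, the tyrosine enzyme, measured 18.0 and 20.5 RPKM in Chd1KD cells, against 20.5 and 18.6 RPKM in Control cells. In each case the groups overlapped and the log2 fold change was between -0.03 and 0.03.

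The order of the cytosolic levels, highest first, was Gars, Nars, Kars, Rars, Tars, Eprs, Vars, Hars, Dars, Sars, Cars, Farsb, Iars, Mars, Lars, Farsa, Qars, Aars, Wars and Yars. Of the 19 neighbouring pairs in that order, the ranges over the 4 libraries overlapped for 12. They did not overlap for 7, which were Kars over Rars, Tars over Eprs, Eprs over Vars, Sars over Cars, Farsb over Iars, Mars over Lars and Wars over Yars.

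Promoter sequence was looked up in the RefSeq table for GRCm38.p6, which gives 250 bases before and 50 bases after a transcript's start. That start need not be the end of the gene span. A window was found for 27 members, 13 cytosolic and 14 mitochondrial, and 7 short motifs were searched on both strands. The amino acid response element bound by ATF4 was searched as TGATGNAA. It was present in 3.97% of all 32851 windows, and in 4.51% when counted once per gene over 27025 genes. It was found in 5 of the 13 cytosolic windows (Aars, Gars, Iars, Tars and Yars) and in 0 of the 14 mitochondrial windows. A match in each of these 5 genes is shown because the motif was present in cytosolic windows alone; capitals mark the match. Sequences are printed on the gene's strand, so matches that read TTGCATCA or TTTCATCA lie on the opposite strand.
Aars, chr8:111033840-111033869, + strand, match beginning at base 10 of the transcript: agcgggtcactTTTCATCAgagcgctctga
Gars, chr6:55037960-55037989, + strand, match beginning 30 bases before the start: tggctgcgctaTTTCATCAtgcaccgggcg
Iars, chr13:49682126-49682155, + strand, match beginning at base 8 of the transcript: cactgtcagtaTTGCATCAcctccagacgc
Tars, chr15:11399655-11399684, - strand, match beginning 15 bases before the start: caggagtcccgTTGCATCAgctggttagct
Yars, chr4:129189895-129189924, + strand, match beginning at base 4 of the transcript: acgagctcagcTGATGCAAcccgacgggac

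The 5 genes with this motif did not share a direction. Gars had the largest positive log2 fold change of the cytosolic members at 0.24, Aars stood at 0.03, Yars at -0.03, Iars at -0.06 and Tars at -0.07. The ETS core CCGGAAG was in 5 cytosolic and 4 mitochondrial windows (8.86% of all windows, 9.93% of genes). The E-box CACGTG was in 4 cytosolic windows and 1 mitochondrial window (7.15% of windows, 8.09% of genes). The CCAAT box was in 7 cytosolic and 6 mitochondrial windows (37.4% of windows, 41.1% of genes). The GC box GGGCGG was in 8 cytosolic and 11 mitochondrial windows (35.7% of windows, 38.2% of genes). Neither the NRF1 motif (0.971% of windows, 1.07% of genes) nor the cAMP response element TGACGTCA (1.79%, 2.03%) was found in any of the 27 windows. Letters in a window are a description and show no binding.

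**Figure D2:**
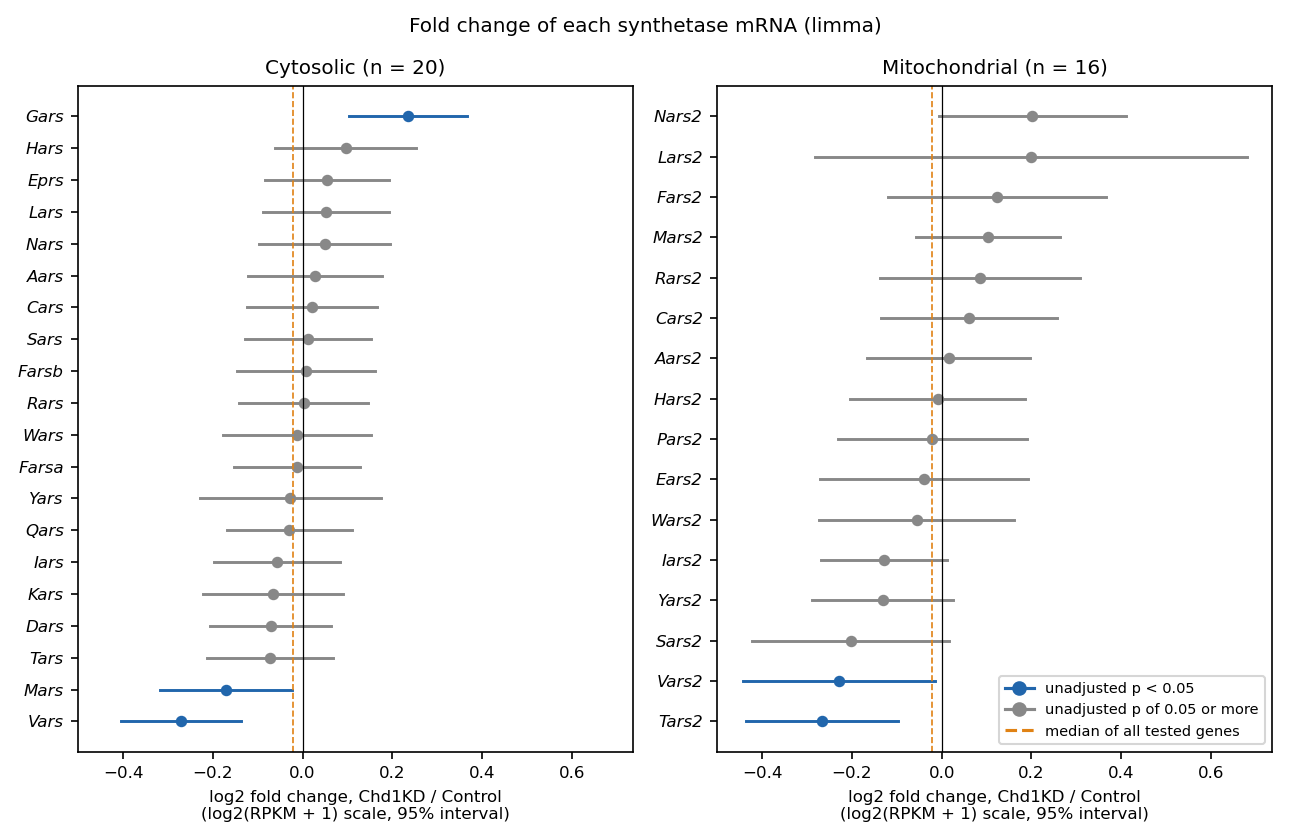
Log2 fold change of each synthetase mRNA, Chd1KD over Control, on the log2(RPKM + 1) scale, with 95% intervals from limma; cytosolic genes are on the left and mitochondrial genes on the right. Blue marks the 5 genes at an unadjusted p under 0.05, the dashed line is the median of all tested genes at -0.02, and the interval of Lars2 is the widest.

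The mitochondrial members spanned a similar range of fold changes, between -0.27 for Tars2 and 0.20 for Nars2. Tars2, the threonine enzyme of mitochondria, measured 11.4 and 11.3 RPKM in Chd1KD cells, against 14.5 and 13.2 RPKM in Control cells. Both Chd1KD libraries were below both Control libraries and almost equal to each other. On the log2 scale the fold change was -0.27 ± 0.07 (SE), with an interval of -0.44 to -0.10 and an adjusted p = 0.139 by limma. Tars2 lies at chr3:95739974-95756365 and is protein coding.

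Vars2, the mitochondrial valine enzyme, measured 4.00 and 4.18 RPKM in Chd1KD cells, against 4.62 and 5.33 RPKM in Control cells. The groups did not overlap, although the Control libraries differed from each other by more than Control replicate 1 differed from Chd1KD replicate 2. Its log2 fold change was -0.23 ± 0.09 (SE), with an interval of -0.44 to -0.02 and an adjusted p = 0.246 by limma. Vars2 lies at chr17:35655634-35667639, on the chromosome that also carries Vars.

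Lars2, the mitochondrial leucine enzyme, was the most abundant of the group and the most variable member. It measured 44.4 and 40.5 RPKM in Chd1KD cells, against 28.6 and 47.2 RPKM in Control cells. The Control libraries lay on either side of both Chd1KD libraries, and their log2 gap of 0.72 was the only one over 0.3 among the 36 members within Control. Over all 4 libraries the log2 fold change was 0.20 ± 0.20 (SE), with an interval of -0.28 to 0.68. Without Control replicate 1 it was -0.15, and without Control replicate 2 it was 0.55 with an adjusted p = 0.0208 by limma, so its sign rested on which Control library was kept. With 1 Control library left, that library is assumed to vary as the Chd1KD pair does, which the 4 libraries do not bear out for Lars2. Without Lars2 the mitochondrial sum was 130.4 and 131 RPKM in Chd1KD cells, against 141 and 133 RPKM in Control cells. Both Chd1KD libraries then lay below both Control libraries, as they did for 30.5% of single tested genes. Lars2 was picked for its spread in these same libraries, and the remaining difference was not tested.

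Iars2, the isoleucine enzyme, measured 31.1 and 31.7 RPKM in Chd1KD cells, against 35.3 and 33.6 RPKM in Control cells. Yars2, the tyrosine enzyme, measured 12.5 and 13.03 RPKM in Chd1KD cells, against 14.5 and 13.7 RPKM in Control cells. Both genes were lower in each Chd1KD library than in either Control library, at log2 fold changes of -0.13 for each. The interval of Iars2, -0.27 to 0.01, and that of Yars2, -0.29 to 0.03, included 0.

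Sars2, the serine enzyme, averaged 5.97 ± 0.303 RPKM in Chd1KD cells and 7.04 ± 0.790 RPKM in Control cells. Its groups did not overlap and its log2 fold change was -0.20, with an interval of -0.42 to 0.02. Mars2, which makes the methionyl-tRNA that is formylated for mitochondrial initiation, averaged 9.14 ± 0.286 RPKM in Chd1KD cells and 8.43 ± 0.0075 RPKM in Control cells. Its groups did not overlap either, with the Chd1KD libraries higher, at a log2 fold change of 0.10 and an interval of -0.06 to 0.26.

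Nars2, the asparagine enzyme, was the least abundant member and had the largest positive fold change of the mitochondrial group. It measured 2.96 and 3.00 RPKM in Chd1KD cells, against 2.39 and 2.53 RPKM in Control cells. Both Chd1KD libraries were above both Control libraries. In log2 terms the fold change was 0.20 ± 0.09 (SE), with an interval of -0.01 to 0.41 and an adjusted p = 0.281 by limma.

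Pars2, the proline enzyme, measured 2.99 and 3.21 RPKM in Chd1KD cells, against 3.28 and 3.04 RPKM in Control cells. Wars2, the tryptophan enzyme, measured 2.99 and 3.01 RPKM in Chd1KD cells, against 3.36 and 2.96 RPKM in Control cells. The groups overlapped for both genes, which together with Nars2 made up the least abundant members.

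Rars2, the arginine enzyme, averaged 12.2 ± 1.61 RPKM in Chd1KD cells and 11.4 ± 0.338 RPKM in Control cells. Hars2, the histidine enzyme, averaged 9.22 ± 0.589 RPKM in Chd1KD cells and 9.28 ± 0.703 RPKM in Control cells. Ears2, which charges glutamate and also puts glutamate on glutamine tRNA for later amidation, averaged 8.55 ± 0.542 RPKM in Chd1KD cells and 8.84 ± 1.14 RPKM in Control cells. None of these separated the groups.

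Cars2, the cysteine enzyme, averaged 6.65 ± 0.248 RPKM in Chd1KD cells and 6.35 ± 0.535 RPKM in Control cells. Aars2, the alanine enzyme, averaged 6.47 ± 0.302 RPKM in Chd1KD cells and 6.39 ± 0.282 RPKM in Control cells. Fars2, which works as a single chain unlike its cytosolic counterpart, averaged 3.87 ± 0.550 RPKM in Chd1KD cells and 3.46 ± 0.0714 RPKM in Control cells. All of these overlapped between groups as well.

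The order of the mitochondrial levels, highest first, was Lars2, Iars2, Yars2, Tars2, Rars2, Hars2, Mars2, Ears2, Sars2, Cars2, Aars2, Vars2, Fars2, Pars2, Wars2 and Nars2. Of the 15 neighbouring pairs, ranges over the 4 libraries overlapped for 10. They did not overlap for 5, which were Iars2 over Yars2, Rars2 over Hars2, Ears2 over Sars2, Aars2 over Vars2 and Fars2 over Pars2.

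By structural class the medians lay close to that of all tested genes. The median log2 fold change was -0.020 over 10 cytosolic class I genes and 0.0098 over 10 cytosolic class II genes. Eprs was counted in class I alone, although its proline enzyme has its mitochondrial counterpart, Pars2, in class II. The median was -0.040 over 9 mitochondrial class I genes and -0.0089 over 7 mitochondrial class II genes. Over the compartments it was -0.0048 for the 20 cytosolic and -0.015 for the 16 mitochondrial genes. Quantile normalization turned these to 0.013 for cytosolic and 0.018 for mitochondrial genes. It also moved the median of all tested genes, from -0.021 to -0.00068. At an unadjusted p under 0.05 the cytosolic group held 1 gene higher and 2 lower, and the mitochondrial group 0 higher and 2 lower.

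The intervals are on the log2(RPKM + 1) scale, which makes differences of low genes smaller than they are in RPKM, so the counts here do not bound RPKM ratios of the least abundant mitochondrial genes. The standard error of the log2 fold change ran between 0.06 and 0.08 for cytosolic genes, with a median of 0.06, and between 0.06 and 0.20 for mitochondrial genes, with a median of 0.09. The whole 95% interval lay within a 1.3-fold difference on that scale in either direction for 19 of the 20 cytosolic genes, Vars being the exception. The same held for 11 of the 16 mitochondrial genes. Within a 1.5-fold difference lay 20 cytosolic and 15 mitochondrial genes, Lars2 being the exception.

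**Figure D3:**
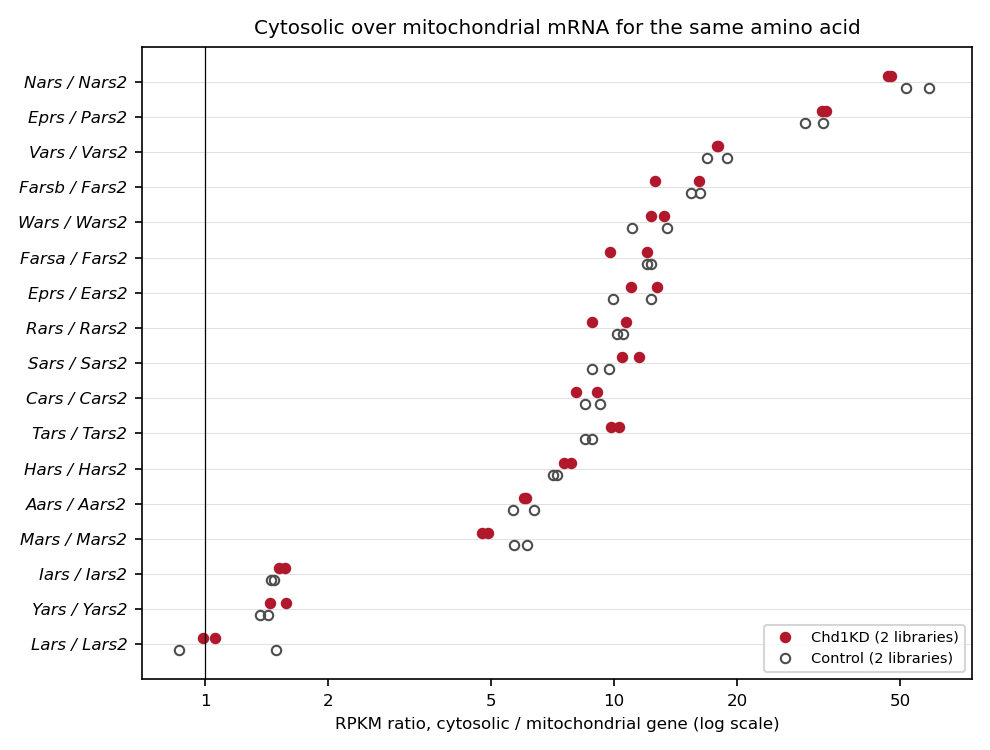
RPKM of the cytosolic gene divided by RPKM of the mitochondrial gene for the same amino acid, on a log axis, in each of 17 pairs. Filled red points are the Chd1KD libraries and open points the Control libraries; the line marks a ratio of 1, which Lars over Lars2 straddles, and Nars over Nars2 has the highest ratios.

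Cytosolic and mitochondrial genes for the same amino acid made 17 pairs, with Eprs and Fars2 each used in more than 1 pair. The cytosolic mRNA was the more abundant in every library for 16 of the 17 pairs. The exception was leucine, where Lars over Lars2 was 0.987 and 1.06 in Chd1KD libraries and 1.49 and 0.860 in Control libraries. Iars over Iars2 was 1.52 and 1.56 in Chd1KD libraries and 1.45 and 1.47 in Control libraries. Yars over Yars2 was 1.44 and 1.57 in Chd1KD libraries and 1.42 and 1.36 in Control libraries. The leucine, isoleucine and tyrosine pairs were therefore the most evenly balanced.

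At the other end, Nars over Nars2 was 46.8 and 47.5 in Chd1KD libraries and 58.9 and 51.7 in Control libraries, the highest ratio of the 17. The ratio was lower in both Chd1KD libraries. For methionine, Mars over Mars2 was 4.76 and 4.91 in Chd1KD libraries and 6.13 and 5.70 in Control libraries, and again the groups did not overlap, Mars being lower and Mars2 higher in Chd1KD cells. For threonine, Tars over Tars2 was 9.85 and 10.3 in Chd1KD libraries and 8.50 and 8.84 in Control libraries.

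Sars over Sars2 was 10.4 and 11.5 in Chd1KD libraries and 8.81 and 9.72 in Control libraries. Hars over Hars2 was 7.55 and 7.86 in Chd1KD libraries and 7.08 and 7.23 in Control libraries. In all, the groups stood apart for 7 of the 17 pairs. The ratio was lower in Chd1KD libraries for asparagine and methionine and higher for threonine, serine, histidine, isoleucine and tyrosine. Of single tested genes, 21.3% stood apart as higher and 30.5% as lower. No such share was computed for ratios, so the 7 pairs are not read as a shift between compartments.

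For valine the ratio hardly differed. Vars over Vars2 was 18.0 and 17.8 in Chd1KD libraries and 18.9 and 16.8 in Control libraries, since both genes were lower in Chd1KD cells by a similar proportion. The log2 fold change had the same sign in both genes for 11 of the 17 pairs, both negative in 5 and both positive in 6. These pairs share genes, and the counts are a description.

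Several transcripts were listed for 11 members, and no test was made of their proportions. The major transcript of Kars held 81.2% and 82.4% of the gene's RPKM in Chd1KD cells and 83.0% and 82.1% in Control cells. That of Nars held 66.5% and 65.8% in Chd1KD cells and 66.9% and 69.8% in Control cells. That of Cars held 71.3% and 72.2% in Chd1KD cells and 71.6% and 75.5% in Control cells. That of Tars2 held 89.0% and 87.9% in Chd1KD cells and 88.7% and 83.9% in Control cells. Control replicate 2 had the highest share of the 4 libraries for Nars and Cars and the lowest for Tars2.

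Besides Mars, 7 members overlap another measured gene, Hars and Hars2 overlapping each other by 4 bases. The longest stretches were 3974 bases of Aars with Ddx19b and 2332 bases of Farsb with Sgpp2. These are overlaps of whole gene spans, and whether the counted transcripts reach into them was not examined. Ddx19b measured 5.89 and 6.10 RPKM in Chd1KD cells, against 5.50 and 5.66 RPKM in Control cells, well under Aars. Sgpp2 was under 0.1 RPKM in every library.

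**Figure D4:**
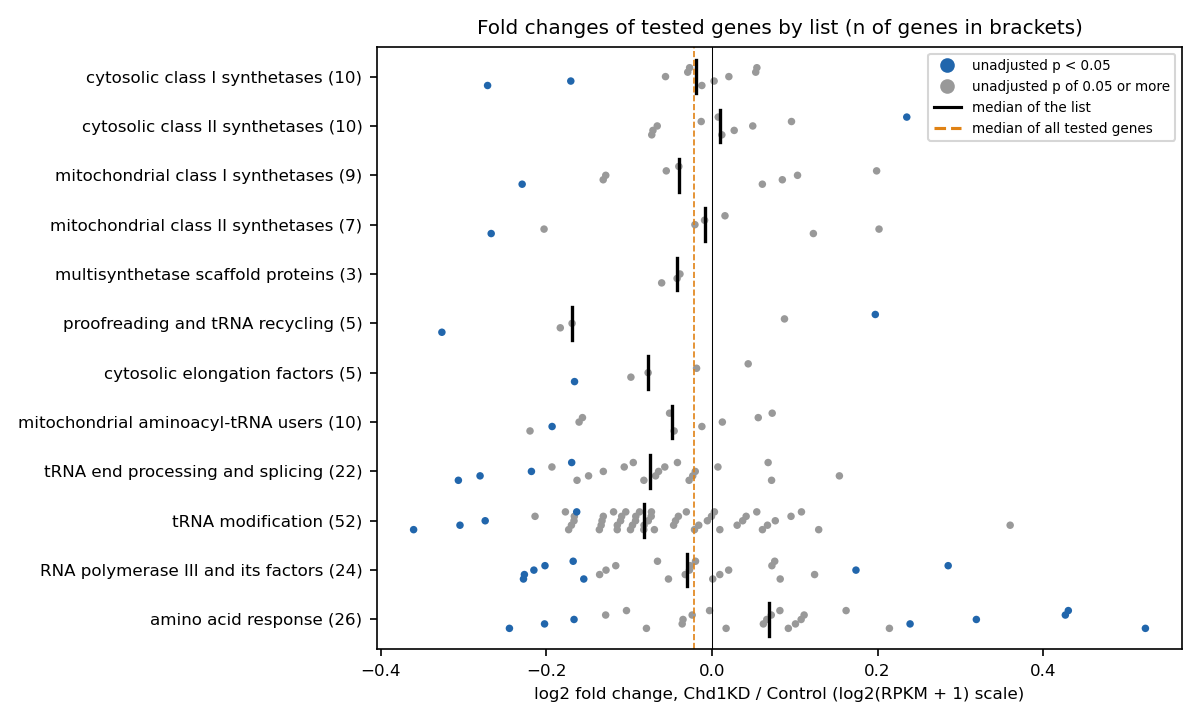
Log2 fold change, Chd1KD over Control, of every tested gene in the 4 synthetase lists and in 8 lists of genes that act around charged tRNA, with the number of genes in brackets. Blue marks genes at an unadjusted p under 0.05, the short black bars are list medians and the dashed line is the median of all tested genes; the median is -0.08 for tRNA modification and 0.07 for the amino acid response.

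Genes that act before and after charging were read from the same fit. By limma none of them passed an adjusted p of 0.05, so the counts that follow are at an unadjusted p under 0.05, to be read against the 7.24% of tested genes that were higher and the 11.3% that were lower. The plot of fold changes by list shows most tRNA processing and modification genes left of 0. Most tested genes also lay there, since 43.5% had a positive fold change.

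Transcription of tRNA genes by RNA polymerase III and tRNA export were covered by 24 genes, of which 2 were higher and 6 lower, with a median of -0.03. Gtf3a, the factor for 5S RNA genes, measured 94.2 and 99.4 RPKM in Chd1KD cells, against 115 and 109.9 RPKM in Control cells (adjusted p = 0.146 by limma). Maf1, the repressor of the polymerase, measured 21.1 and 20.3 RPKM in Chd1KD cells, against 23.5 and 25.4 RPKM in Control cells (adjusted p = 0.155). Gtf3c5, a TFIIIC subunit, measured 8.88 and 9.21 RPKM in Chd1KD cells, against 10.2 and 11.3 RPKM in Control cells (adjusted p = 0.194). Polr3g, a polymerase subunit, went the other way at 6.05 and 5.66 RPKM in Chd1KD cells, against 4.84 and 4.40 RPKM in Control cells (adjusted p = 0.154). The log2 fold change of Maf1, -0.23, was -0.098 when the most abundant transcript alone was used.

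End processing and splicing were covered by 23 genes, 22 of them tested, of which 0 were higher and 4 lower, with a median of -0.08. Tsen15, a splicing endonuclease subunit, measured 26.1 and 26.3 RPKM in Chd1KD cells, against 34.3 and 31.1 RPKM in Control cells (adjusted p = 0.104 by limma). Thg1l, which in yeast adds the extra guanosine of histidine tRNA, measured 10.8 and 10.7 RPKM in Chd1KD cells, against 14.4 and 12.1 RPKM in Control cells (adjusted p = 0.178). Pop7, an RNase P subunit, measured 43.4 and 45.0 RPKM in Chd1KD cells, against 50.1 and 49.5 RPKM in Control cells (adjusted p = 0.190). Elac2, which trims tRNA 3′ ends, measured 14.9 and 13.8 RPKM in Chd1KD cells, against 18.2 and 15.6 RPKM in Control cells (adjusted p = 0.253). None of these 4 genes overlapped between groups, which follows largely from picking them by small p. Of the 22 tested genes of this list, 10 stood apart as lower and 1 as higher. Of all tested genes, 30.5% stood apart as lower and 21.3% as higher, and the list was not tested as a whole. Tsen15 had a log2 fold change of -0.31 over all 4 libraries and -0.37 without Control replicate 2, which leaves 1 Control library.

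Modification enzymes were covered by 53 genes, 52 of them tested, of which 0 were higher and 4 lower. The log2 fold change was positive for 13 of them and negative for 39, against 43.5% positive over all tested genes. The median was -0.08, and the list as a whole was not tested. Trub2, a mitochondrial pseudouridine synthase, measured 8.27 and 8.12 RPKM in Chd1KD cells, against 9.94 and 10.3 RPKM in Control cells (adjusted p = 0.121 by limma). Trmt61a, a tRNA adenosine methyltransferase, measured 7.66 and 7.34 RPKM in Chd1KD cells, against 10.8 and 9.11 RPKM in Control cells (adjusted p = 0.126). Adat3, of the wobble adenosine deaminase, measured 4.43 and 4.26 RPKM in Chd1KD cells, against 5.84 and 5.36 RPKM in Control cells (adjusted p = 0.139). Elp3, the catalytic Elongator subunit, measured 13.4 and 14.3 RPKM in Chd1KD cells, against 15.4 and 15.9 RPKM in Control cells (adjusted p = 0.253). The log2 fold change of Trmt61a was -0.36, and -0.17 when the most abundant transcript alone was used. Without Control replicate 2 it was -0.47, with an adjusted p = 0.0427 by limma.

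Of the 5 tested genes for proofreading and recycling of charged tRNA, 1 was higher and 1 lower, with a median of -0.17. Dtd1, which removes D-amino acids from tRNA, measured 8.29 and 7.65 RPKM in Chd1KD cells, against 10.96 and 9.56 RPKM in Control cells (adjusted p = 0.138 by limma).

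Of 5 cytosolic elongation factors, 1 was lower, with a median of -0.08. Eef2, which moves the ribosome along the mRNA, measured 999 and 985 RPKM in Chd1KD cells, against 1128 and 1098 RPKM in Control cells (adjusted p = 0.218 by limma). Of 10 mitochondrial genes that use charged tRNA, again 1 was lower, with a median of -0.05. Tsfm, the exchange factor for mitochondrial EF-Tu, measured 42.5 and 42.4 RPKM in Chd1KD cells, against 50.4 and 47.0 RPKM in Control cells (adjusted p = 0.177 by limma).

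The amino acid response, which ATF4 drives and to which many synthetase genes belong, was covered by 27 genes, 26 of them tested. Of these 5 were higher and 3 lower, with a median of 0.07. Chac1, which breaks down glutathione, measured 2.48 and 2.62 RPKM in Chd1KD cells, against 1.66 and 1.29 RPKM in Control cells (adjusted p = 0.104 by limma). Slc7a11, the cystine importer, measured 8.61 and 10.4 RPKM in Chd1KD cells, against 6.08 and 7.49 RPKM in Control cells (adjusted p = 0.146).

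Phgdh and Shmt2, of serine and one-carbon metabolism, were lower in Chd1KD cells. Phgdh, the entry enzyme of serine synthesis, measured 569.5 and 605 RPKM in Chd1KD cells, against 724 and 669 RPKM in Control cells (adjusted p = 0.148 by limma). Shmt2, the mitochondrial serine hydroxymethyltransferase, measured 76.8 and 77.1 RPKM in Chd1KD cells, against 91.7 and 85.9 RPKM in Control cells (adjusted p = 0.155). Chd1KD and Control libraries stood apart for each of these 4 genes, which follows largely from picking them by small p. Of all tested genes, 21.3% stood apart as higher and 30.5% as lower. No direction was common to the list. Atf4 itself, named after its values were seen, was also among the 3 lower genes, averaging 105 RPKM in Chd1KD cells and 118 RPKM in Control cells, a log2 fold change of -0.17. The other higher genes, named in the same way, were Ddit3 with a log2 fold change of 0.43, Trib3 with 0.32 and Slc7a1 with 0.24.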

How the data were processed

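The authors deposited RPKM values for 30582 RefSeq transcript rows in 4 libraries; TopHat 1.4.1, Cufflinks 1.3.0 and mm10 appear in the submitters' processing notes. No source used here gives the annotation release, strand setting or filters. Rows were named through NCBI's GRCm38.p6 table (30003 rows) and GENCODE (180 rows), leaving 399 unnamed, and RPKM was summed per gene. The 10209 of 23521 genes that averaged 1 RPKM or more entered limma 3.58.1 (R 4.3.3) as log2(RPKM + 1), fitted with a trend of variance on level. Adjustment was by Benjamini-Hochberg over all tested genes, with a call at an adjusted p under 0.05. The pseudocount of 1 understates fold changes of low genes. The test was checked only on data simulated from its own fitted variance, with changes of 1.5-fold and 2-fold. Smaller changes, such as those between the group means of the members, were not simulated. The members and gene lists were chosen with earlier results of these data known. Given library by library were members at an unadjusted p under 0.05, the 3 highest and 3 lowest of each compartment and the extreme fold changes. From each other list up to 4 genes by p were given. Some items that these rules take are not reported here. The alternatives tried were the pseudocount, filter, scaling, variance model, replicate number, transcript choice and each library left out. Python 3.11.15 and matplotlib 3.10.9 drew the figures.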

Additional observations from a re-analysis of the deposited data

How the results depend on the processing

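Over the 13 alternatives, 17 members kept the sign of their log2 fold change. Genes called numbered 47 as reported, 0 with no filter on low values (2153 at an unadjusted p under 0.05 by limma), 71 with a mean of at least 5 RPKM, 6 without a variance trend, 92 with a robust trend, 12 with the most abundant transcript and between 49 (without Chd1KD replicate 1) and 236 (without Control replicate 2) with a library left out. Members called numbered 0 to 1 with a library left out, the 1 being Lars2 without Control replicate 2, and 0 under the other alternatives except the block below. Members at an unadjusted p under 0.05 numbered 5 as reported and 2 to 8 with a library left out. With a library left out, the mitochondrial median ran between -0.070 (without Control replicate 2) and 0.016 (without Control replicate 1). The cytosolic median ran between -0.049 (without Control replicate 2) and 0.037 (without Control replicate 1). The median of all tested genes was -0.034 without Control replicate 2 and -0.0075 without Control replicate 1. With a library left out, the lone library of that group is assumed to vary like the other group. Replicate numbers carry no stated pairing, and deviations of same-numbered libraries correlated at r = 0.22 over genes in only 2 pairs. With the replicate number as a block, 325 genes were called, 1 member was called (Vars, adjusted p = 0.0404 by limma) and 8 members were at an unadjusted p under 0.05; Slc7a11 was called too (adjusted p = 0.0329).

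Signs reversed for Cars (-0.013) with the most abundant transcript, for Farsa (0.0081), Hars2 (0.015) and Pars2 (0.020) under quantile normalization and for Hars2 (0.0011) under median scaling. With a library left out, the log2 fold change ran between -0.014 and 0.068 for Aars, -0.025 and 0.057 for Aars2, -0.025 and 0.066 for Cars, -0.013 and 0.14 for Cars2, -0.16 and 0.078 for Ears2, -0.053 and 0.027 for Farsa, -0.048 and 0.063 for Farsb, -0.079 and 0.061 for Hars2, -0.14 and 0.0035 for Kars, and -0.15 and 0.55 for Lars2. It ran between -0.0046 and 0.10 for Nars, -0.061 and 0.019 for Pars2, -0.065 and 0.0065 for Qars, -0.049 and 0.055 for Rars, -0.040 and 0.21 for Rars2, -0.031 and 0.055 for Sars, -0.069 and 0.045 for Wars, -0.12 and 0.013 for Wars2, -0.12 and 0.064 for Yars and -0.077 and 8.7e-05 for Eef1e1. The cause was not tested. Depth is unknown, so no counting error is given.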
